A study of Gallus gallus with 20 samples.

Results

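The change of liver gene expression between 5 and 10 weeks of age is described for chickens labelled Cornish, a meat breed. It was taken from 10 libraries, 5 labelled Cornish at 5 weeks and 5 labelled Cornish at 10 weeks, out of 20 libraries in all. The other 10 libraries are labelled Ogye, a Korean native breed with black skin and bones, again 5 at each age. Genes are the entries of the count table that carry a gene symbol, 13956 of 54062 entries. The labels give breed, tissue, age and replicate number. They give neither sex, diet nor time of sampling, and do not tell if each library is a bird of its own, so a p-value measures the spread between libraries. RNA was total RNA depleted of ribosomal and globin transcripts, and the labels name no further treatment.

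The liver makes most proteins of blood plasma, clears drugs and bile pigments, and in birds is the main site of fat synthesis and of uric acid production. In young meat chickens it also answers growth hormone by releasing IGF1, and its growth slows as the birds mature. In laying hens estrogen turns on yolk precursor genes in hepatocytes, the main cell type of the organ. Kupffer cells (resident macrophages), endothelium, stellate cells, bile duct cells and blood cells make up the rest. In such tissue, fewer cells of a type and less RNA per cell cannot be told apart.

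Libraries held between 14865637 and 31848768 counts, and between 9625549 and 21106844 on genes with a symbol, the fewest in replicate 5 of 10 weeks. Levels are given as CPM, counts per 1e+06 counts of genes with a symbol after TMM scaling, a method that sets the typical gene equal between libraries. TMM factors did not overlap between ages, with 1.03 to 1.29 at 5 weeks and 0.881 to 0.961 at 10 weeks. The first principal component of log2 CPM held 42.6% of the variance and set the ages apart, with scores of -60.6 to -14.9 at 5 weeks and 21.4 to 35.2 at 10 weeks. Albumin (ALB) took 11.5% to 18.7% of the counts of genes with a symbol and all 20 hepatocyte markers found in the table were tested. The log2 of the summed CPM of genes on the female W chromosome was 6.53 to 6.66 at 5 weeks and 6.28 to 6.47 at 10 weeks, without overlap. A covariate that does not overlap between ages cannot be told apart from age, and with it 7 genes were called higher and 3 lower. The part of the sex of the birds was not tested.

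Replicate 1 of 5 weeks stood apart. Among the 10158 genes whose mean reached 1 CPM, 224 were more than 4 times above the median of the other libraries of its age, against 8 to 25 genes in each of the other 9 libraries. Of 128 cell cycle and DNA replication genes, 97 were above that ratio. RRM2, which makes deoxynucleotides for DNA synthesis, had 144 CPM there, and the other libraries of that age had 1.75 to 5.14 CPM. For TOP2A, a topoisomerase of dividing cells, the level was 90.3 CPM against 3.14 to 7.11 CPM. Others far above were SMC2, CDCA3, KIF2C and PBK of the same lists, at 88.1, 17.9, 19.7 and 22.2 CPM, and outside them BARD1, SLBP, KNTC1, CENPW, DCK2 and GZMA, at 13.7, 46.9, 35.8, 15.4, 28.6 and 88.8 CPM. GZMA, a granzyme of killer lymphocytes, was at 3.61 to 12.1 CPM in replicates 2 to 5. None of these 12 genes passed the test of age, and counts without this library are given for some of the gene lists below.

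The labels of breed were checked on chromosome 20. Ogye birds are black through Fibromelanosis, a rearrangement that duplicates a segment holding EDN3 and its neighbours PRELID3B, ATP5E, TUBB1 and CTSZ. EDN3 itself reached at most 1.12 CPM in any library and was not tested. ATP5E, a small subunit of ATP synthase that lies 69.9 kb from EDN3 in RefSeq's GRCg7b annotation, had 181 to 458 CPM in libraries labelled Ogye and 70.1 to 97.9 CPM in those labelled Cornish at 5 weeks, scaled over the 20 libraries. At 10 weeks the order was the other way round, with 55.7 to 116 CPM in libraries labelled Ogye and 171 to 206 CPM in those labelled Cornish. The difference of the age changes between the labelled breeds was called for ATP5E in the fits of 20 and of 17 libraries (2.93 and 2.36 on the log2 scale), and for PRELID3B, TUBB1 and CTSZ in neither, with adjusted p of 0.11 and 0.11, 0.11 and 0.053, and 0.070 and 0.13. PRELID3B ran from 20.3 to 40.5 CPM at 5 weeks and from 36.6 to 49.4 CPM at 10 weeks in libraries labelled Cornish, and from 31.5 to 51.9 and from 24.4 to 65.6 CPM in those labelled Ogye. ZNF831 and ELMO2, within 100 kb of EDN3, also had a difference called in both fits (1.80 and 2.47, and 0.86 and 0.44). In that window it was called for GNAS with 20 libraries alone (-1.02), and for SLC35C2, SNRPN, DDX27 and NELFCD in neither fit. Whether the duplication sets the level of any of these genes was not tested. Within the libraries labelled Cornish, ATP5E rose with age by 1.10 ± 0.11 on the log2 scale (adjusted p = 0.00018), and TUBB1 by 1.32 ± 0.13 (adjusted p = 0.00016), while CTSZ did not pass the test (0.29 ± 0.12, adjusted p = 0.11). SULT1B1, URAH and CDHR5, 3 of the genes with the widest changes below, had the same crossed pattern. Others of those genes, such as RASAL3, PALM2AKAP2 and SYNJ2BP, moved the same way in both labelled breeds.

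The labels were then compared over all genes. The difference between the labelled breeds averaged over both ages was called for 17 of 10697 genes, 0.159% of them (1977 at an unadjusted p under 0.05). A fit of 17 libraries left out replicates 3, 4 and 5 of Ogye at 5 weeks. They were left out for a trend with gene length seen in earlier results of these data and not measured here. Only replicates 1 and 2 remained in that group, so every Ogye value of the fit of 17 rests on them at 5 weeks. In that fit the quasi-likelihood test of edgeR called 0 of 10957, or 0% (1204 at an unadjusted p under 0.05). The difference between the labelled breeds in their change with age, in contrast, was called for 2500 genes (23.4%) in the fit of 20 libraries and 1491 (13.6%) in the fit of 17. In the libraries labelled Ogye the change with age was called for 4931 genes (46.1%) and 1531 genes (14%) in the same fits. Whether the breed labels hold at both ages was not tested beyond these values, and every direction below is that of the libraries labelled Cornish. The average of the age changes of both labelled breeds keeps its value if the labels of one age were exchanged, and it is given for gene lists and for many of the named genes. It was called for 4007 genes (37.5%) in the fit of 20 libraries and 1988 genes (18.1%) in the fit of 17, with 9% of tested genes higher and 9.14% lower at 10 weeks in the latter. Below, the averaged change is that of the 17 libraries unless stated otherwise. It includes the Cornish libraries and is not independent of them.

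**Figure D1:**
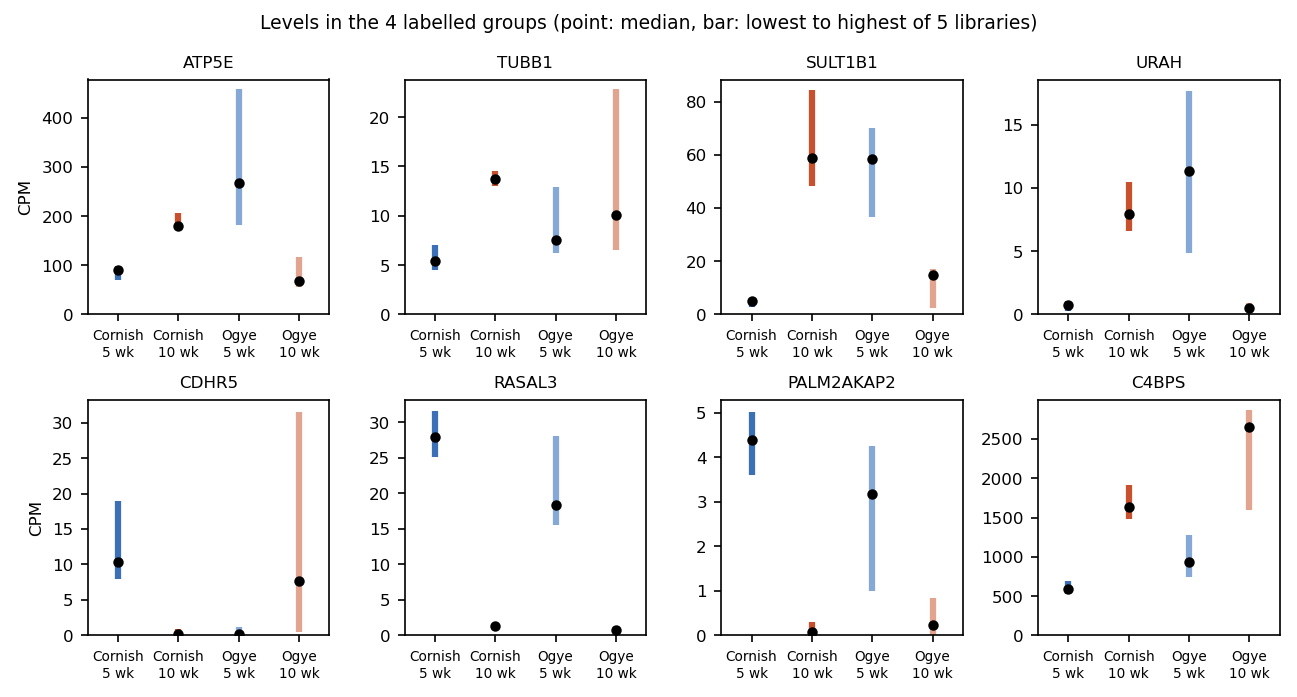
Levels of 8 genes in the 4 labelled groups, in CPM scaled over the 20 libraries (vertical axis). Points are medians and bars run from the lowest to the highest of 5 libraries. ATP5E, SULT1B1, URAH and CDHR5 cross over between the labelled breeds, TUBB1 does not overlap between ages in the libraries labelled Cornish and does in those labelled Ogye, and RASAL3, PALM2AKAP2 and C4BPS move the same way in both.

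In the 10 Cornish libraries, 10452 genes had enough counts to be tested and 2330 of them, 22.3%, changed at an adjusted p under 0.05 (edgeR quasi-likelihood test, Benjamini-Hochberg over all tested genes). Of these, 1254 rose (12% of tested genes) and 1076 fell (10.3%). The change was at least 1 on the log2 scale for 245 genes that rose and 236 that fell. For 1708 genes, or 16.3%, the 5 libraries of 10 weeks did not overlap the 5 of 5 weeks, and 1541 of them were also called. A fit that also held the entries without a symbol, 17316 entries tested, turned the balance, with 1006 genes higher and 1336 lower. Scaling, spread and adjustment of p all changed in that fit, and their parts were not tested. Without replicate 1 of 5 weeks 1202 genes were higher (11.4%) and 1115 lower (10.6%) of 10542.

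The gene with the widest rise was APOV1, a small apolipoprotein of the yolk particles that the liver exports to the egg. It stood at 0.155, 0, 0.308, 0.323 and 0.148 CPM in replicates 1 to 5 at 5 weeks and 89.2, 231, 46.1, 50.96 and 145 CPM at 10 weeks. Replicates of 5 weeks held between 0 and 7 reads of it and those of 10 weeks between 678 and 3065, so the fold change (log2 fold change 9.20 ± 0.71, adjusted p = 7.7e-05) rests on very few reads at the younger age. In the libraries labelled Ogye it did not pass the test (-0.79, adjusted p = 0.60 in the fit of 17), and the change averaged over both labelled breeds was 4.20 (adjusted p = 0.0023).

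ANO1, a chloride channel opened by calcium, rose. Libraries held 7.01, 10.9, 15.7, 17.1 and 12.9 CPM in replicates 1 to 5 at 5 weeks and 218, 325, 215, 200.1 and 201 CPM at 10 weeks, without overlap (log2 fold change 4.19 ± 0.25, adjusted p = 8.8e-06). SULT1B1, a sulfotransferase that conjugates phenols and thyroid hormone, also rose. Its level was 2.78, 5.42, 5.14, 4.66 and 5.09 CPM in replicates 1 to 5 at 5 weeks and 50.7, 88.1, 63.8, 61.6 and 57.6 CPM at 10 weeks (log2 fold change 3.80 ± 0.20, adjusted p = 2.6e-06). URAH, an enzyme that acts after urate oxidase in urate breakdown, went from 6 to 21 reads per library to 86 to 145 reads. It stood at 1.08, 0.837, 0.308, 0.784 and 0.346 CPM in replicates 1 to 5 at 5 weeks and 6.95, 10.9, 8.35, 7.59 and 9.30 CPM at 10 weeks (log2 fold change 3.66 ± 0.32, adjusted p = 7.7e-05). In the libraries labelled Ogye, SULT1B1 and URAH fell (-1.97, adjusted p = 0.0088 in the fit of 17, and -3.14, adjusted p = 0.00022 in the fit of 17), and ANO1 did not pass the test (-0.47, adjusted p = 0.62 in the fit of 17). The averaged change was called for ANO1, at 1.86 (adjusted p = 0.0065), and for SULT1B1, at 0.91 (adjusted p = 0.049), and not for URAH, at 0.26 (adjusted p = 0.50).

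The other genes of the 10 widest rises were CTSEAL, an aspartic protease of the cathepsin family, BDKRB1, a bradykinin receptor, NOXO1, an organiser of the superoxide-producing NADPH oxidase, NTNG2, an axon guidance protein, SYNJ2BP, a protein of the mitochondrial outer membrane, and IL22RA2, a soluble decoy receptor for interleukin 22. Libraries 1 to 5 held 0.825, 0.485, 1.03, 0.369 and 0.988 CPM at 5 weeks and 10.9, 8.45, 7.89, 7.37 and 8.22 CPM at 10 weeks for SYNJ2BP, without overlap (log2 fold change 3.53 ± 0.28, adjusted p = 4.9e-05). SYNJ2BP rose in the libraries labelled Ogye too (3.47, adjusted p = 8.3e-05 in the fit of 17), and its averaged change was 3.51 (adjusted p = 1.1e-07). CTSEAL ran from 0.415 to 2.91 CPM at 5 weeks and from 12.4 to 58.2 CPM at 10 weeks (log2 fold change 4.52 ± 0.57, adjusted p = 0.0011). IL22RA2 ran from 0.979 to 5.99 CPM at 5 weeks and from 9.55 to 70.7 CPM at 10 weeks (log2 fold change 3.52 ± 0.60, adjusted p = 0.0042). CTSEAL and IL22RA2 also kept a called averaged change, of 2.99 (adjusted p = 0.0017) and 2.74 (adjusted p = 0.0082). BDKRB1 and NTNG2 had only 3 to 4 and 1 to 5 reads per library at 5 weeks, against 9 to 95 and 13 to 56 at 10 weeks, and rose by 4.39 ± 0.63 and 3.86 ± 0.51. NTNG2 fell in the libraries labelled Ogye (-2.63, adjusted p = 0.0058 in the fit of 17), and its averaged change of 0.61 (adjusted p = 0.27) was not called, while that of BDKRB1 was, at 1.76 (adjusted p = 0.017). NOXO1 spread from 3.70 to 55.8 CPM within 10 weeks (log2 fold change 4.18 ± 0.91, adjusted p = 0.011), and treating the replicate number as a block ended its call (adjusted p = 0.055).

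RASAL3, a protein that switches off Ras and is known from blood cells of mammals, fell. Its level was 28.04, 25.9, 29.3, 30.6 and 33.2 CPM in replicates 1 to 5 at 5 weeks and 1.29, 1.06, 1.78, 1.65 and 1.30 CPM at 10 weeks (log2 fold change -4.36 ± 0.15, adjusted p = 2.4e-08). The ages did not overlap, and RASAL3 also fell in the libraries labelled Ogye (-4.78, adjusted p = 1.3e-10 in the fit of 17). PALM2AKAP2, an anchor of protein kinase A, fell to a few reads. It stood at 3.81, 4.54, 4.98, 5.26 and 4.55 CPM in replicates 1 to 5 at 5 weeks and 0.0808, 0.302, 0.0657, 0.0752 and 0.216 CPM at 10 weeks (log2 fold change -4.94 ± 0.35, adjusted p = 2.1e-05), from 74 to 114 reads per library to 1 to 4. Its averaged change was -4.18 (adjusted p = 4.6e-06). SMOC1, a matrix protein that binds calcium, fell too. SMOC1 ran from 6.75 to 16.3 CPM at 5 weeks and from 0.197 to 1.05 CPM at 10 weeks (log2 fold change -4.05 ± 0.42, adjusted p = 0.00028), with an averaged change of -3.28 (adjusted p = 0.00053).

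CDHR5, an adhesion protein of microvilli, fell in the Cornish libraries and rose in those labelled Ogye. Libraries held 8.40, 12.7, 10.9, 9.69 and 19.96 CPM in replicates 1 to 5 at 5 weeks and 0.162, 0.754, 0.920, 0.225 and 0 CPM at 10 weeks (log2 fold change -4.77 ± 0.51, adjusted p = 0.00034), while the libraries labelled Ogye rose by 6.94 in the fit of 17, so the averaged change was 1.09 (adjusted p = 0.43). CDKN2B, an inhibitor of the kinases that start the cell cycle, fell as well. Its level was 17.2, 15.9, 34.8, 22.3 and 15.9 CPM in replicates 1 to 5 at 5 weeks and 2.26, 3.17, 2.43, 2.10 and 1.95 CPM at 10 weeks (log2 fold change -3.14 ± 0.25, adjusted p = 6.8e-05), and its averaged change of -0.82 (adjusted p = 0.085) did not pass the test. THSD7B and PTPRR, a receptor phosphatase, fell, at a log2 fold change of -3.98 ± 0.55 and -3.61 ± 0.47, and S100A10, a partner of annexin, at -3.26 ± 0.34. KLHL10, an adaptor of ubiquitin ligases known from mouse testis, fell, at a log2 fold change of -3.22 ± 0.49 from levels under 2.2 CPM. The entry named U6 fell from 15 to 36 reads per library to 0 to 2 (-3.68 ± 0.50). The spliceosomal RNA of that name has many near-identical copies, so its counts are uncertain.

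**Figure D2:**
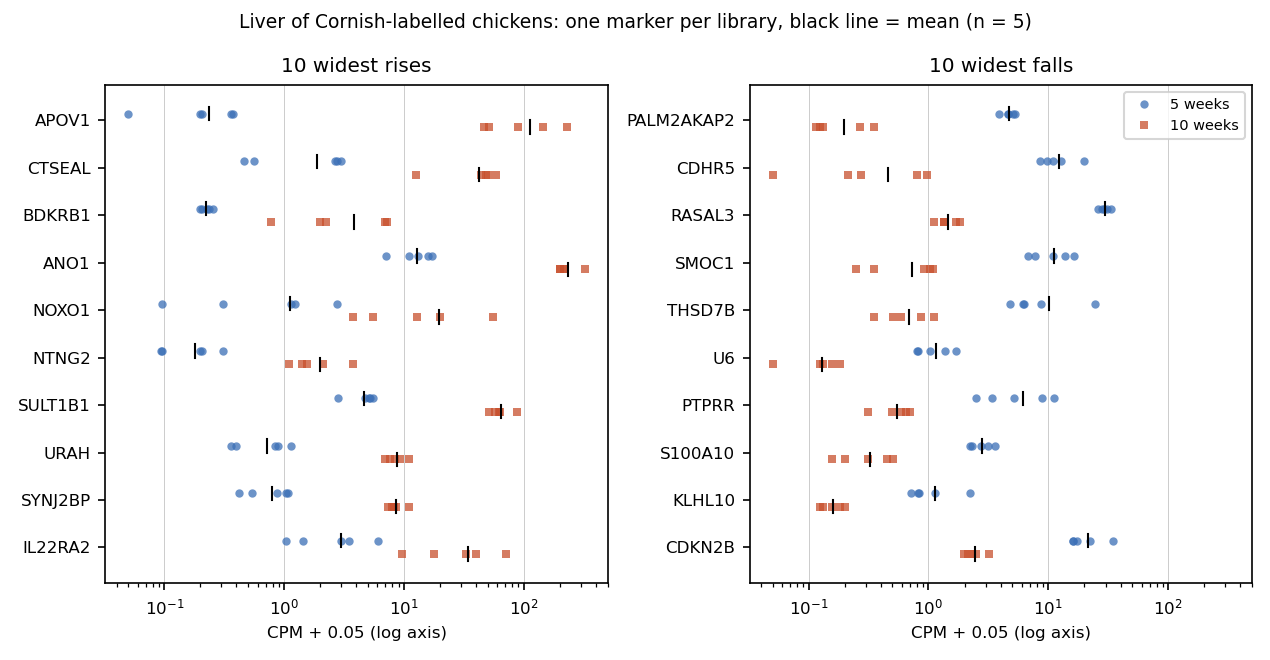
Level of the 10 genes with the widest rise and the 10 with the widest fall among called genes without overlap, in CPM plus 0.05 on a log axis. Each circle (5 weeks) or square (10 weeks) is 1 library and the black line is the mean of 5. APOV1 goes from at most 0.323 to at least 46.1 CPM and RASAL3 from at least 25.9 to at most 1.78 CPM.

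Outside those, the lowest adjusted p-values belonged to genes of moderate size of change. POSTN, periostin, a matrix protein of activated stellate cells, fell. It stood at 33.3, 40.4, 27.8, 31.3 and 37.3 CPM in replicates 1 to 5 at 5 weeks and 7.68, 7.69, 9.27, 7.59 and 10.1 CPM at 10 weeks (log2 fold change -2.01 ± 0.13, adjusted p = 9e-06). PIGR, which carries immunoglobulin A into bile, rose. Libraries held 235, 454, 338, 326 and 362 CPM in replicates 1 to 5 at 5 weeks and 1284, 1736, 1417, 1563 and 1188 CPM at 10 weeks (log2 fold change 2.07 ± 0.18, adjusted p = 7.7e-05). RABGAP1L, a regulator of vesicle traffic, rose from 19.5 to 32.7 CPM at 5 weeks to 94.2 to 135 CPM at 10 weeks (log2 fold change 2.26 ± 0.17, adjusted p = 2.9e-05). C4BPS, of the complement regulator C4b-binding protein, rose from 555 to 726 CPM at 5 weeks to 1549 to 2008 CPM at 10 weeks (log2 fold change 1.47 ± 0.13, adjusted p = 7.7e-05). UNC13B, a vesicle priming factor, rose by 1.89 ± 0.16 and GLIS2, a zinc finger repressor, fell, at a log2 fold change of -1.77 ± 0.15. None of the 6 genes overlapped between ages. Averaged over both labelled breeds, the change was called for all 6 genes in the same direction, at 1.44 (adjusted p = 0.0092) for PIGR, 1.71 (adjusted p = 4.6e-06) for RABGAP1L, 1.47 (adjusted p = 2.9e-05) for C4BPS and 1.51 (adjusted p = 1.3e-05) for UNC13B. It was -0.65 (adjusted p = 0.016) for POSTN and -0.71 (adjusted p = 0.0070) for GLIS2. Neither POSTN nor GLIS2 fell in the libraries labelled Ogye (0.70, adjusted p = 0.11, and 0.35, adjusted p = 0.38 in the fit of 17). Their difference between the labelled breeds was called in both fits. In the fit of 20 POSTN rose in the libraries labelled Ogye (1.72, adjusted p = 0.0078). Its averaged change in that fit was -0.14 (adjusted p = 0.75).

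Plasma proteins of the acute phase, of coagulation and of complement were mostly higher at 10 weeks. Of 61 members, all of which were tested, 39 rose and 0 fell, against 12% and 10.3% of all genes, with a median log2 fold change of 0.66 against -0.04 over all tested genes. These shares of all genes are the background for the counts of every list below. Leaving out 1 library gave 32 to 38 called members. C6, a component of the complement pore, rose. Its level was 212, 250.3, 213, 239 and 306 CPM in replicates 1 to 5 at 5 weeks and 998, 659, 1047, 815 and 632 CPM at 10 weeks (log2 fold change 1.77 ± 0.17, adjusted p = 0.00018). ITIH2, which stabilises hyaluronan, rose by 1.14 ± 0.12, the clotting factor F5 by 0.94 ± 0.10 and PROC, an anticoagulant protease, by 0.77 ± 0.09. Their libraries did not overlap between ages.

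Summed over the list, the level was 185509 CPM in replicate 1 of 5 weeks, 264260 to 288515 CPM in the other 4 libraries of that age, and 334205 to 371335 CPM at 10 weeks. Without replicate 1 of 5 weeks 36 members rose and 0 fell. The averaged change was called higher for 33 of 61 members and lower for 0, with a median of 0.39. The difference of the age changes, Cornish minus Ogye, was called positive for 11 of these members and negative for 2, against 7.81% and 5.8% of all genes in the fit of 17. The markers of hepatocytes, several of which are plasma proteins, had 10 of 20 members higher and 1 lower. Fibrinogen chains were among them. The level was 5091, 8547, 7400.4, 7774 and 9278 CPM at 5 weeks and 20901, 14636, 22221, 18966 and 16589 CPM at 10 weeks for the beta chain FGB (log2 fold change 1.29 ± 0.18, adjusted p = 0.0013). FGA rose by 1.37 ± 0.19, PLG, plasminogen, by 0.86 ± 0.11 and APOH by 1.12 ± 0.11. FGA and FGB also rose in the libraries labelled Ogye (1.88, adjusted p = 0.021 in the fit of 17, and 1.71, adjusted p = 0.028 in the fit of 17).

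Genes of xenobiotic metabolism, the oxidation and conjugation of drugs and foreign compounds, were mostly higher at 10 weeks. Of 49 tested members 20 rose and 1 fell, with a median of 0.56 and 19 to 25 called members when 1 library was left out. Beside SULT1B1, CYP2D6, a cytochrome P450 that oxidises many drugs, rose. Libraries held 139, 218, 167, 161 and 157 CPM in replicates 1 to 5 at 5 weeks and 682, 652, 453, 467 and 631 CPM at 10 weeks (log2 fold change 1.77 ± 0.16, adjusted p = 0.00011). CYP4V2, which oxidises fatty acids, rose by 1.36 ± 0.19 and fell in the libraries labelled Ogye (-1.03, adjusted p = 0.041 in the fit of 17). The exception was CYP1B1, which oxidises estrogens and aromatic hydrocarbons. Its level was 3.40, 8.02, 9.29, 8.58 and 7.11 CPM in replicates 1 to 5 at 5 weeks and 1.62, 1.21, 2.10, 1.05 and 1.19 CPM at 10 weeks (log2 fold change -2.33 ± 0.30, adjusted p = 0.00089). Reads of P450 genes may be shared among similar copies. The averaged change had 6 members higher and 2 lower, and the difference of the age changes, Cornish minus Ogye, was called positive for 12 members and negative for 1. For CYP2D6, CYP4V2 and CYP1B1 the averaged changes were 0.16 (adjusted p = 0.78), 0.17 (adjusted p = 0.61) and -0.80 (adjusted p = 0.021).

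Of 26 genes that handle metals 11 rose and 1 fell, with a median of 0.51. CP, ceruloplasmin, which carries copper and oxidises iron, rose. It stood at 329.8, 187, 144, 153 and 293 CPM in replicates 1 to 5 at 5 weeks and 974, 424, 1604, 975 and 557 CPM at 10 weeks (log2 fold change 2.04 ± 0.38, adjusted p = 0.0055). It also rose in the libraries labelled Ogye (3.97, adjusted p = 0.012 in the fit of 17), and the difference between the labelled breeds was not called in either fit. MTF1, the factor that turns on metallothioneins, rose by 0.61 ± 0.09 and ACO1, which in the absence of iron binds messenger RNAs of iron proteins, by 0.51 ± 0.09. CCS, the copper chaperone of superoxide dismutase, fell, at a log2 fold change of -0.52 ± 0.09, and its call was lost in the fits of 17 and 20 libraries. Of 29 antioxidant genes 9 rose and 2 fell (median 0.33, 6 to 13 called with 1 library left out, fewest without replicate 1 of 10 weeks).

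Transcripts of the mitochondrial genome were higher at 10 weeks. Of 13 genes 10 rose and 0 fell, with a median of 0.72 and 9 to 11 called members when 1 library was left out. Their sum was 63843 to 91167 CPM at 5 weeks and 103158 to 121673 CPM at 10 weeks, without overlap. Libraries 1 to 5 held 3294, 4552, 3067, 4427 and 4073 CPM at 5 weeks and 8486, 8255, 8346, 7849 and 7598 CPM at 10 weeks for ND4, a subunit of complex I (log2 fold change 1.06 ± 0.14, adjusted p = 0.00094). ND4L, next to it, rose by 1.36 ± 0.15, CYTB of complex III by 0.91 ± 0.13 and ND2 by 1.23 ± 0.19. These genes lie on 1 polycistronic transcript and are not independent of each other. Averaged over both labelled breeds, the change was called higher for 9 of 13 and lower for 0. The 55 nuclear genes of oxidative phosphorylation had 5 members higher and 4 lower, near the background of all genes, with a median of 0.06 and 5 called members without replicate 3 or 4 of 5 weeks or replicate 1, 2 or 4 of 10 weeks. Without replicate 1 of 5 weeks 3 of these nuclear genes were higher and 6 lower.

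Of 34 genes that oxidise fatty acids or make ketone bodies 11 rose and 0 fell, with a median of 0.38. CROT, a carnitine acyltransferase of peroxisomes, rose. Its level was 68.7, 75.9, 66.7, 73.5 and 64.9 CPM in replicates 1 to 5 at 5 weeks and 123, 146, 154, 116 and 151 CPM at 10 weeks (log2 fold change 0.98 ± 0.10, adjusted p = 0.00028). ETFDH, which passes electrons from fatty acid oxidation to the respiratory chain, rose by 0.61 ± 0.11, ACADS, the dehydrogenase for short chains, by 0.70 ± 0.14, and CRAT, a carnitine acetyltransferase, by 0.66 ± 0.15. Leaving out replicate 3 of 5 weeks or replicate 2 of 10 weeks left 7 called members. In the averaged change 1 member was higher and 2 lower, and the difference of the age changes, Cornish minus Ogye, was called positive for 9 and negative for 0.

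Of 23 genes of fatty acid synthesis 3 rose and 1 fell, or 17.4% called against 22.3% of all genes. Only 1 member was called without replicate 3 of 5 weeks or replicate 2 or 5 of 10 weeks. FASN, fatty acid synthase, ran from 4187 to 12031 CPM at 5 weeks and from 3393 to 8316 CPM at 10 weeks, a difference within the spread between libraries (log2 fold change -0.34 ± 0.31, adjusted p = 0.45). THRSP, a lipogenic gene under thyroid control, did not pass either (log2 fold change -0.34 ± 0.24, adjusted p = 0.32). Of 24 cholesterol synthesis genes 1 rose and 2 fell, with a median of -0.43 and 1 to 6 called members when 1 library was left out, most without replicate 2 of 5 weeks. Among 22 genes of glycerolipids and lipid droplets 5 rose and 2 fell. PNPLA2, the lipase that starts the breakdown of stored fat, was called with the lowest p among them. It stood at 76.95, 76.7, 53.4, 57.9 and 87.2 CPM in replicates 1 to 5 at 5 weeks and 157, 219, 158, 205 and 243 CPM at 10 weeks (log2 fold change 1.48 ± 0.17, adjusted p = 0.00044). CD36, a fatty acid transporter, rose by 0.60 ± 0.10, CIDEA, a droplet coat protein, by 0.63 ± 0.13 and LPIN2, which makes diacylglycerol, by 2.02 ± 0.52. CD36 lost its call in the fits of 17 and 20 libraries. LPIN2 was split within 5 weeks, with 50.9 to 54.3 CPM in replicates 1, 3 and 4 and 201 and 255 CPM in replicates 2 and 5, and the ages overlapped. The averaged changes of PNPLA2 and LPIN2 were 0.46 (adjusted p = 0.042) and 0.07 (adjusted p = 0.92), and LPIN2 fell in the libraries labelled Ogye (-1.88, adjusted p = 0.036 in the fit of 17). Leaving out replicate 3 of 5 weeks, or replicate 4 or 5 of 10 weeks, left 4 called members of that list.

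Of 62 genes of amino acid breakdown 16 rose and 2 fell, with a median of 0.23. Without replicate 1 of 5 weeks 14 rose and 6 fell, with a median of 0.11. AHCY, which splits homocysteine from its adenosine carrier, rose. Libraries held 721, 825, 919.7, 889.5 and 833 CPM in replicates 1 to 5 at 5 weeks and 1976, 2046, 1532, 1956 and 1617 CPM at 10 weeks (log2 fold change 1.12 ± 0.12, adjusted p = 0.00034). PCBD1, which regenerates the cofactor of phenylalanine hydroxylase, rose by 0.76 ± 0.12, AUH of leucine breakdown by 0.92 ± 0.15 and SDSL, a serine dehydratase, by 0.56 ± 0.11. AUH also rose in the libraries labelled Ogye (0.86, adjusted p = 0.014 in the fit of 17). The averaged change was higher for 12 of 63 members and lower for 1. In replicate 1 of 5 weeks the summed level was 11687 CPM, against 17193 to 22794 CPM in the other libraries of that age and 20173 to 30311 CPM at 10 weeks. Of 51 genes of glucose and glycogen metabolism 8 rose and 3 fell, with 6 called members without replicate 3 of 5 weeks or replicate 2 of 10 weeks. In the folding and stress list of the endoplasmic reticulum, through which plasma proteins are secreted, 8 of 58 rose and 2 fell, and 17 had a higher and 0 a lower averaged change. The count of called members was 6 without replicate 3 of 5 weeks or replicate 2 of 10 weeks. Without replicate 1 of 5 weeks 7 members of this list rose and 6 fell. Of 41 heat shock chaperones 2 rose and 2 fell, of 25 amino acid response genes 0 rose and 1 fell, of 27 liver transcription factors 4 rose and 2 fell, and of 16 genes of early liver 2 rose and 4 fell, with 2 of the last list called without replicate 3 of 5 weeks or replicate 2 of 10 weeks.

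Birds excrete nitrogen as uric acid made from purines in the liver. Of 24 genes that make or break down purines and uric acid or carry urate, 7 rose and 1 fell (median 0.08). Beside URAH these included GMPS, which makes GMP (0.43 ± 0.08), ABCG2, a urate exporter (0.60 ± 0.12), and ADK, adenosine kinase (0.61 ± 0.13). Replicates 1 to 5 had 435, 537, 532, 596 and 577 CPM at 5 weeks and 893, 936, 729, 662 and 854 CPM at 10 weeks for ADK, without overlap. Averaged over both labelled breeds, the change was called for ABCG2, at 0.36 (adjusted p = 0.033), and not for GMPS, at 0.31 (adjusted p = 0.074), or ADK, at 0.34 (adjusted p = 0.097).

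In the growth hormone and IGF axis 5 of 24 genes rose and 1 fell, with a median of 0.30. GHR, the growth hormone receptor, was higher at 10 weeks. It stood at 372, 379, 423, 372 and 333 CPM in replicates 1 to 5 at 5 weeks and 506, 685, 677, 699 and 708 CPM at 10 weeks (log2 fold change 0.80 ± 0.12, adjusted p = 0.0015). The rise was wider in the libraries labelled Ogye (1.83, adjusted p = 0.00015 in the fit of 17), a difference called in both fits, and the averaged change was 1.32 (adjusted p = 2.2e-05). IGF2BP3, an RNA-binding protein of fetal tissues that holds IGF2 messages, fell. Libraries held 20.8, 11.4, 9.65, 6.46 and 12.1 CPM in replicates 1 to 5 at 5 weeks and 2.67, 4.30, 5.06, 3.98 and 3.03 CPM at 10 weeks (log2 fold change -1.65 ± 0.30, adjusted p = 0.0043). It fell in the libraries labelled Ogye too (-2.21, adjusted p = 0.00073 in the fit of 17). IGF2R, a receptor that in mammals clears IGF2, rose by 0.60 ± 0.11 and PTPN1, a phosphatase of the insulin and growth hormone receptors, by 1.04 ± 0.21. PTPN1 fell in the libraries labelled Ogye (-1.58, adjusted p = 0.00088 in the fit of 17), with an averaged change of -0.27 (adjusted p = 0.23).

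The growth factors themselves were not called. Replicates 1 to 5 had 17.4, 27.7, 23.7, 22.8 and 29.1 CPM at 5 weeks and 30.6, 30.9, 26.7, 31.4 and 26.7 CPM at 10 weeks for IGF1 (log2 fold change 0.28 ± 0.13, adjusted p = 0.14). The level was 45.5, 105, 56.1, 36.4 and 98.6 CPM at 5 weeks and 130.05, 77.00, 149, 84.7 and 133 CPM at 10 weeks for IGF2 (log2 fold change 0.75 ± 0.31, adjusted p = 0.11). For IGFBP2, a binding protein of the IGFs, the change was -0.35 ± 0.33 (adjusted p = 0.46). The ages overlapped for IGF1, IGF2 and IGFBP2. Of 26 insulin signalling genes 7 rose and 0 fell, with a median of 0.17. IRS4, an adaptor of the insulin receptor, rose from 13.4 to 30.7 CPM at 5 weeks to 73.9 to 112 CPM at 10 weeks (log2 fold change 2.03 ± 0.23, adjusted p = 0.00044), and the receptor INSR itself by 0.74 ± 0.12. INSR fell in the libraries labelled Ogye (-0.81, adjusted p = 0.0058 in the fit of 17), and the averaged changes were 0.45 (adjusted p = 0.30) for IRS4 and -0.03 (adjusted p = 0.86) for INSR. GRB14, which inhibits that receptor, rose by 0.64 ± 0.09 and PDK1, a kinase that blocks pyruvate oxidation, by 1.02 ± 0.14. The difference of the age changes, Cornish minus Ogye, was called positive for 7 of the 26 members and negative for 2, and 6 had a higher and 2 a lower averaged change. Of 16 thyroid hormone genes 3 rose and 0 fell.

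Yolk and lipoprotein genes had 6 of 27 members higher and 1 lower, with a median of -0.05. Apart from APOV1 and APOH the leading members were APOB, the backbone of very low density lipoprotein, and SCARB1, the receptor that takes cholesterol from high density lipoprotein. Libraries 1 to 5 held 3515, 4691, 3747, 4311 and 4958 CPM at 5 weeks and 7118, 6923, 7589.9, 6782 and 6349 CPM at 10 weeks for APOB (log2 fold change 0.71 ± 0.13, adjusted p = 0.0041). SCARB1 rose by 0.75 ± 0.13, fell in the libraries labelled Ogye (-0.77, adjusted p = 0.013 in the fit of 17) and had an averaged change of -0.01 (adjusted p = 0.97). Both estrogen receptors rose as members of a list of 35 nuclear receptors with 7 higher and 0 lower. Replicates 1 to 5 had 12.1, 12.4, 7.50, 9.69 and 15.2 CPM at 5 weeks and 15.5, 26.6, 20.5, 24.4 and 36.2 CPM at 10 weeks for ESR1 (log2 fold change 1.11 ± 0.23, adjusted p = 0.0085). The level was 4.17, 4.85, 3.90, 4.01 and 6.32 CPM at 5 weeks and 13.3, 17.9, 8.15, 18.7 and 16.2 CPM at 10 weeks for ESR2 (log2 fold change 1.67 ± 0.23, adjusted p = 0.0011). HNF4beta, a regulator of liver genes, rose by 0.77 ± 0.12 and NR3C2, the mineralocorticoid receptor, by 0.80 ± 0.16. The averaged changes of ESR1 and ESR2 were called too, at 0.70 (adjusted p = 0.038) and 0.86 (adjusted p = 0.046). In the libraries labelled Ogye alone neither gene passed the test in the fit of 17 (0.28, adjusted p = 0.63, and 0.03, adjusted p = 0.97). In the fit of 20 ESR1 rose there (1.21, adjusted p = 0.035) and ESR2 did not pass (0.61, adjusted p = 0.32). Of 21 bile acid genes 5 rose and 1 fell, with 3 called members without replicate 2 of 10 weeks. CYP7A1, which catalyses the first step from cholesterol to bile acids, ran from 42.7 to 182 CPM at 5 weeks and from 5.19 to 80.1 CPM at 10 weeks and did not pass the test (log2 fold change -1.58 ± 0.61, adjusted p = 0.086).

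Of 23 clock genes 4 rose and 2 fell. PER3, a repressor of the clock, and BHLHE41, another repressor, fell. Libraries 1 to 5 held 38.5, 33.1, 36.1, 32.9 and 26.4 CPM at 5 weeks and 14.3, 6.79, 10.5, 16.8 and 15.4 CPM at 10 weeks for PER3 (log2 fold change -1.39 ± 0.21, adjusted p = 0.0020). Replicates 1 to 5 had 7.78, 8.68, 15.3, 15.6 and 6.18 CPM at 5 weeks and 2.99, 1.43, 2.70, 1.80 and 1.84 CPM at 10 weeks for BHLHE41 (log2 fold change -2.31 ± 0.31, adjusted p = 0.0012). CRY1, a cryptochrome, rose by 0.53 ± 0.11. PER3 fell in the libraries labelled Ogye as well (-1.56, adjusted p = 0.0055 in the fit of 17), and BHLHE41 did not pass the test there (0.22, adjusted p = 0.82 in the fit of 17). The hour of sampling is not given in the sources used here, and its part in these values was not tested.

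Most called interferon response genes fell. Of 39 tested members 1 rose and 12 fell, against 12% and 10.3% of all genes, with a median of -0.81. OASL, an antiviral protein of the oligoadenylate synthetase family, fell. It stood at 287, 81.9, 56.9, 25.1 and 67.7 CPM in replicates 1 to 5 at 5 weeks and 20.9, 5.73, 18.7, 12.9 and 14.4 CPM at 10 weeks (log2 fold change -2.84 ± 0.62, adjusted p = 0.011). IFI6, an interferon-induced membrane protein, ran from 30.5 to 761 CPM at 5 weeks and from 7.24 to 35.7 CPM at 10 weeks (log2 fold change -3.47 ± 0.75, adjusted p = 0.011). IFI27L2 fell, at a log2 fold change of -1.46 ± 0.26 and USP18, which removes the ubiquitin-like ISG15, at -2.29 ± 0.58. For IFI6, IFI27L2 and USP18 the ages overlapped, with replicate 4 of 5 weeks at the level of 10 weeks.

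The summed interferon level was 9522 CPM in replicate 1 of 5 weeks, 2258 CPM in replicate 4 and 3259 to 4291 CPM in replicates 2, 3 and 5, against 1812 to 2552 CPM at 10 weeks. Without replicate 1 of 5 weeks 1 member rose and 11 fell, with a median of -0.37. The count of called members ran from 5, without replicate 2 or 5 of 10 weeks, to 17, without replicate 4 of 5 weeks, and was 6 without replicate 1 or 3 of 10 weeks. Markers of lymphocytes had 0 members higher and 3 lower of 24 tested, or 12.5% called against 22.3% of all genes. Their summed level of 613 CPM in replicate 1 of 5 weeks was above the 236 to 378 CPM of the other libraries of that age and the 206 to 329 CPM of 10 weeks. The part of these cells in the interferon values was not tested. The averaged change was higher for 0 and lower for 6 of the 39 genes.

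Antigen presentation genes, 16 tested, had 1 member higher and 2 lower. Their median was -0.51, and -0.06 without replicate 1 of 5 weeks, where 0 rose and 2 fell. BLB2, a class II beta chain of the chicken major histocompatibility complex, fell from 104 to 163 CPM at 5 weeks to 23.2 to 42.3 CPM at 10 weeks (log2 fold change -1.95 ± 0.18, adjusted p = 0.00011). BLB1, the neighbouring class II beta gene, ran the other way, from 17.6 to 46.6 CPM at 5 weeks and from 40.9 to 72.98 CPM at 10 weeks (log2 fold change 0.91 ± 0.28, adjusted p = 0.039), and it lost its call without replicate 1 or 4 of 5 weeks or any library of 10 weeks but replicate 1 (adjusted p up to 0.078). In the libraries labelled Ogye BLB2 rose (1.42, adjusted p = 0.0049 in the fit of 17) and BLB1 fell (-2.04, adjusted p = 0.0025 in the fit of 17), and the averaged changes of -0.26 (adjusted p = 0.28) and -0.56 (adjusted p = 0.10) were not called. BLB1 and BLB2 are near-identical and vary between haplotypes, so reads may pass from one to the other. B2M, the light chain of class I molecules, fell, at a log2 fold change of -0.90 ± 0.25 (adjusted p = 0.025, and 0.051 to 0.057 without replicate 1, 2 or 5 of 10 weeks). It stood at 2088 CPM in replicate 1 of 5 weeks, 852 to 968 CPM in the others of that age and 538 to 753 CPM at 10 weeks.

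Cell cycle genes had a median log2 fold change of -1.90, but only 5 of 76 tested members were called, all lower. Their summed level was 2287 CPM in replicate 1 of 5 weeks, 412 to 494 CPM in the other libraries of that age and 384 to 478 CPM at 10 weeks. Without replicate 1 the median was -0.28, with 2 members higher and 5 lower. Leaving out replicate 2, 4 or 5 of 10 weeks left 0 called members, and leaving out replicate 3 or 1 of 10 weeks left 1 and 2. SMC4 of the condensin complex had no overlap between ages. Libraries held 88.6, 21.7, 21.98, 19.1 and 28.3 CPM in replicates 1 to 5 at 5 weeks and 10.3, 13.4, 14.8, 11.4 and 11.5 CPM at 10 weeks (log2 fold change -1.54 ± 0.42, adjusted p = 0.027). Without replicate 1 of 5 weeks its fall was 0.89 on the log2 scale (adjusted p = 0.0023). OIP5, INCENP and CCNB3, which act at centromeres and at the onset of mitosis, fell, at a log2 fold change of -1.22 ± 0.35, -1.56 ± 0.47 and -2.94 ± 0.90. Without replicate 1 of 5 weeks their log2 fold changes were -0.75, -0.80 and -1.19, with adjusted p of 0.014, 0.0083 and 0.015. With the full group at 5 weeks, leaving out 1 library of 10 weeks ended the calls of these 4 genes. SMC4 lost its call without replicate 1, 2, 4 or 5 (adjusted p up to 0.060), OIP5 without 2, 3, 4 or 5 (up to 0.072), and INCENP and CCNB3 without any of the 5 (up to 0.081 and 0.090).

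Of 52 tested DNA replication genes 0 rose and 4 fell, with a median of -1.14, and -0.23 without replicate 1 of 5 weeks, where 1 rose and 5 fell. The summed level was 1955 CPM in replicate 1, 404 to 467 CPM in the other libraries of 5 weeks and 368 to 497 CPM at 10 weeks. POLE2, a subunit of the leading-strand polymerase, fell with and without that library. Its level was 23.1, 18.03, 20.5, 17.3 and 19.2 CPM in replicates 1 to 5 at 5 weeks and 10.8, 7.77, 9.99, 12.6 and 8.002 CPM at 10 weeks (log2 fold change -0.99 ± 0.14, adjusted p = 0.0015), and without replicate 1 of 5 weeks the log2 fold change was -0.93 (adjusted p = 0.0020). TIPIN of the replication fork fell, at a log2 fold change of -0.64 ± 0.17 and FANCD2 of cross-link repair at -0.55 ± 0.14. DSCC1, of a complex that loads the sliding clamp, fell, at a log2 fold change of -1.89 ± 0.55 and by 0.97 on the log2 scale without replicate 1 of 5 weeks (adjusted p = 0.0069). It lost its call without any single library of 10 weeks (adjusted p up to 0.074).

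**Figure D3:**
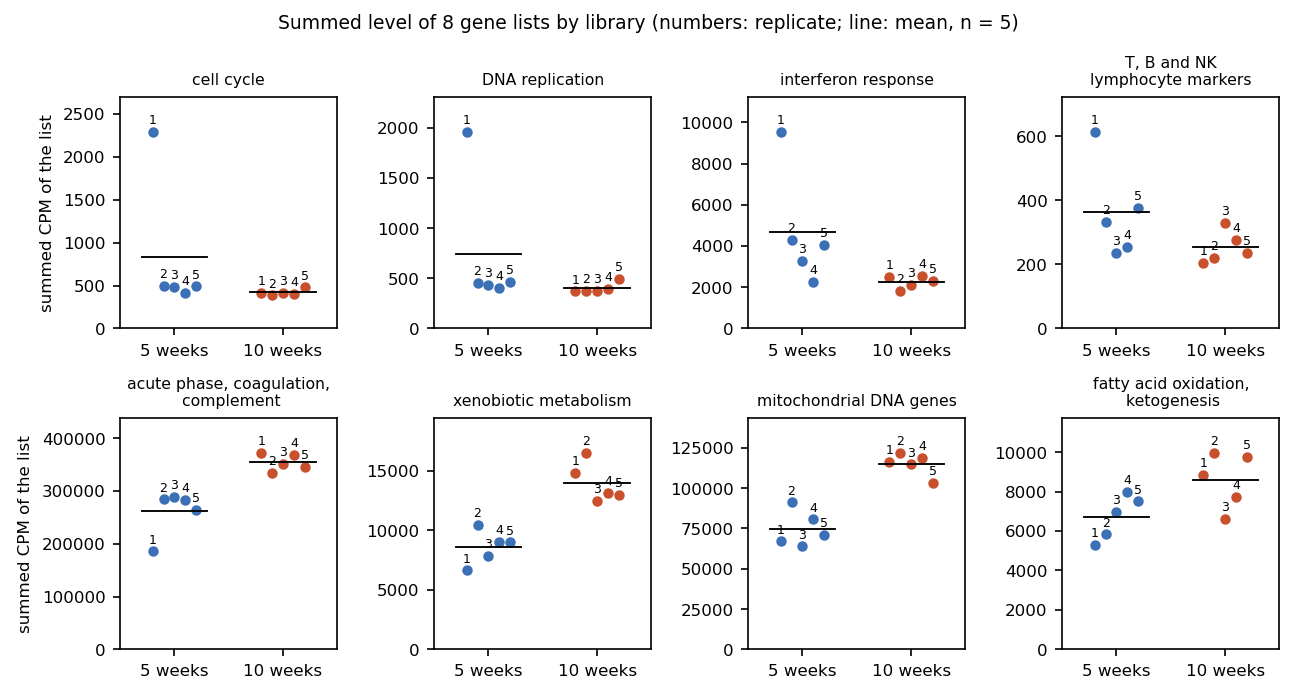
Summed level in CPM (vertical axis) of 8 gene lists in each of the 10 Cornish libraries, by age. Numbers beside the points are replicates and lines are means of 5 libraries. Replicate 1 of 5 weeks is at 2287 CPM for the cell cycle and 9522 CPM for the interferon response, above all other libraries, while the mitochondrial DNA genes do not overlap between ages.

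More genes of the proteasome and of the mitochondrial ribosome fell than rose. Of 38 proteasome genes 3 rose and 10 fell, with a median of -0.13. PSMA4, PSMD14 and PSMB1 fell, at a log2 fold change of -0.37 ± 0.08, -0.47 ± 0.10 and -0.42 ± 0.09, and PSMC2 rose by 0.41 ± 0.08. The level was 86.3, 72.6, 83.04, 80.7 and 77.8 CPM at 5 weeks and 60.3, 64.3, 60.6, 62.8 and 61.3 CPM at 10 weeks for PSMA4, a subunit of the core ring, without overlap. Of 69 genes of the mitochondrial ribosome 1 rose and 12 fell, with a median of -0.14. MRPS28, MRPL23, MRPL47 and MRPL42 fell, at a log2 fold change of -0.59 ± 0.11, -0.37 ± 0.07, -0.48 ± 0.10 and -0.51 ± 0.11. Of 67 cytoplasmic ribosomal proteins 2 rose and 8 fell, with a median of -0.06. Of these, 6 members were called without replicate 4 of 5 weeks or replicate 1 or 4 of 10 weeks.

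Gene length moved with age as well. The Spearman correlation across genes between a library's expression relative to the median library and the span of the gene was -0.218 to -0.00537 at 5 weeks and 0.0691 to 0.171 at 10 weeks, without overlap. Of the tenth of genes with the shortest span, with a median of 2.43 kb, 6.43% rose and 16.0% fell, and their median log2 fold change was -0.18. Of the tenth with the longest span, with a median of 142 kb, 19.8% rose and 5.74% fell, with a median of 0.13. The median spans of the cytoplasmic ribosomal, mitochondrial ribosomal and proteasome lists were 3.30, 4.44 and 7.15 kb. The insulin signalling and nuclear receptor lists, with 7 members higher and 0 lower each, had median spans of 53.8 and 42.1 kb. The stellate cell and matrix list, at 33.3 kb, had 4 higher and 6 lower. The part of gene length in the rises of long lists and in the small falls of short ones was not tested. The genes of the mitochondrial genome, with a median span of 0.784 kb, were short and mostly higher.

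Markers of other cell types were counted as well. Of 14 bile duct markers 2 rose and 6 fell, with a median of -0.53. KRT18, a keratin that hepatocytes also express, fell. Libraries held 98.5, 122, 111, 126 and 122 CPM in replicates 1 to 5 at 5 weeks and 63.5, 52.2, 79.6, 73.8 and 58.1 CPM at 10 weeks (log2 fold change -0.82 ± 0.13, adjusted p = 0.0019). KRT7, a keratin of duct cells, fell, at a log2 fold change of -1.35 ± 0.33 with overlap between ages, and CLDN1 of tight junctions rose by 0.64 ± 0.13. CDHR5 also belongs to this list. The count of called members was 5 without replicate 3 or 4 of 5 weeks or replicate 2 or 3 of 10 weeks, and the averaged change was higher for 1 and lower for 0 of 16 members.

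Of 37 markers of stellate cells and matrix 4 rose and 6 fell, with a median of -0.007. Beside POSTN, elastin and both chains of type I collagen were among those that fell. These are the 4 members of lowest adjusted p, and the members that rose are not named. Replicates 1 to 5 had 5.57, 12.1, 16.3, 12.8 and 11.8 CPM at 5 weeks and 3.56, 4.75, 4.60, 4.06 and 3.35 CPM at 10 weeks for elastin, ELN (log2 fold change -1.52 ± 0.25, adjusted p = 0.0025). The chains of type I collagen fell, at a log2 fold change of -0.90 ± 0.17 for COL1A2 and -1.30 ± 0.25 for COL1A1, whose lowest library of 5 weeks, replicate 1, lay below the highest of 10 weeks. Without replicate 2 or 4 of 5 weeks or replicate 2 of 10 weeks 6 members were called. Without replicate 1 of 5 weeks 2 rose and 9 fell. The signed difference of the age changes, Cornish minus Ogye, was called positive for 1 and negative for 10 of 39 members in the fit of 17, and 7 had a higher and 3 a lower averaged change.

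Of 24 macrophage markers 6 rose and 1 fell, with a median of 0.25. LY86, a partner of a Toll-like receptor, rose from 84.1 to 126 CPM at 5 weeks to 155 to 194 CPM at 10 weeks (log2 fold change 0.69 ± 0.12, adjusted p = 0.0037), AIF1L by 0.62 ± 0.14, NCF1C of the phagocyte oxidase by 0.80 ± 0.18 and VSIG4, a complement receptor of Kupffer cells, by 0.50 ± 0.13. VSIG4 lost its call in the fits of 17 and 20 libraries. There were 4 called members without replicate 3 or 4 of 5 weeks or replicate 3 of 10 weeks, and 10 without replicate 1 of 5 weeks. In the averaged change 0 members were called either way. Of 23 endothelial markers 3 rose and 0 fell, with the adhesion proteins PECAM1 and CDH5 at 0.76 ± 0.15 and 0.52 ± 0.11 and VWF, von Willebrand factor, at 0.69 ± 0.17. PECAM1 fell in the libraries labelled Ogye (-0.88, adjusted p = 0.011 in the fit of 17), with an averaged change of -0.06 (adjusted p = 0.79).

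Among 12 tested heterophil markers (heterophils are the avian counterpart of neutrophils), 2 rose and 1 fell. LYG2, a goose-type lysozyme, was the one that fell. It stood at 247, 476, 159, 272 and 416 CPM in replicates 1 to 5 at 5 weeks and 119, 23.5, 83.5, 69.00 and 42.5 CPM at 10 weeks (log2 fold change -2.22 ± 0.43, adjusted p = 0.0068). S100A12 rose by 2.08 ± 0.45 with overlap, from 1.01 to 2.12 CPM at 5 weeks to 1.89 to 12.8 CPM at 10 weeks. The chemokine receptor CXCR1 rose by 1.54 ± 0.35 at low levels, 0.155 to 0.507 CPM at 5 weeks and 0.754 to 1.45 CPM at 10 weeks. LYG2, with an averaged change of 0.28 (adjusted p = 0.60), rose in the libraries labelled Ogye (2.77, adjusted p = 0.0097 in the fit of 17) and S100A12 did too (3.73, adjusted p = 0.0089 in the fit of 17). Among the lymphocyte markers LCK, a kinase of T cells, fell without overlap (-0.53 ± 0.14), and GZMM, a granzyme (-1.55 ± 0.38), and IKZF3 (-1.16 ± 0.38) fell with overlap. LCK also fell in the libraries labelled Ogye (-1.38, adjusted p = 0.0014 in the fit of 17). IKZF3 lost its call without replicate 1, 2 or 4 of 5 weeks or any library of 10 weeks but replicate 4 (adjusted p up to 0.11). Of 11 tested red cell markers 0 were called, with globin depleted by the library kit (edgeR quasi-likelihood test; 3 were called without replicate 5 of 10 weeks). Of 18 pancreas markers 9 were at 0 in every library, among them CPA1, CTRB2, PRSS2 and PRSS3, which encode digestive proteases, and of 18 muscle markers 4 were tested, of which 1 rose and 0 fell. The 1 pancreas marker tested, the amylase AMY1A, which is named here after its values were seen, rose from 105 to 228 CPM at 5 weeks to 295 to 408 CPM at 10 weeks (log2 fold change 0.97 ± 0.19, adjusted p = 0.0066).

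**Figure D4:**
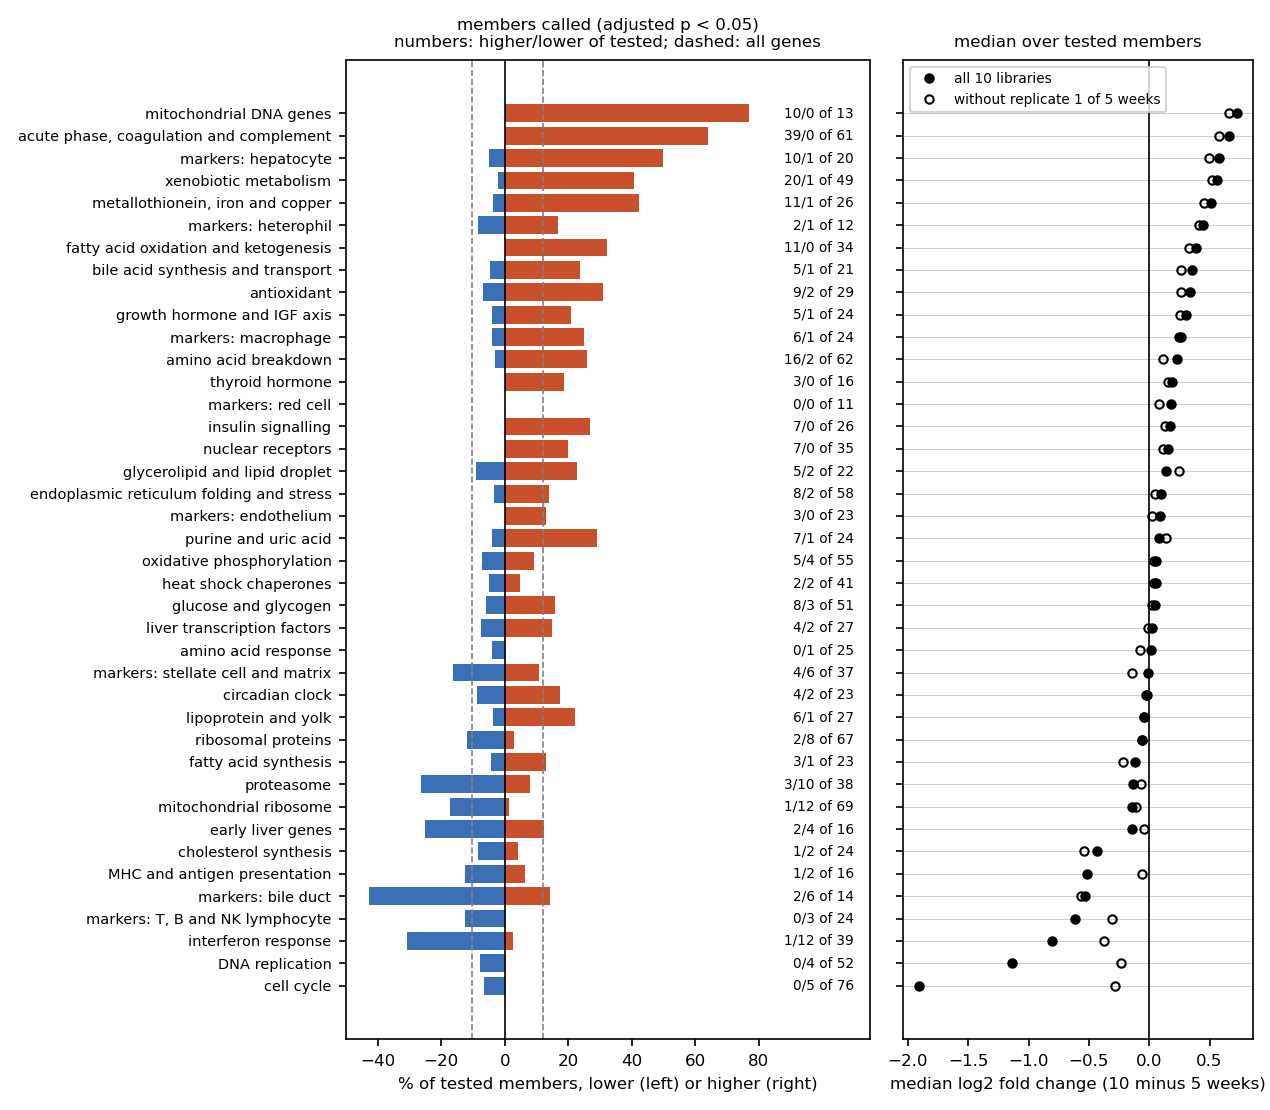
Gene lists with at least 10 tested members, ordered by their median log2 fold change. The left panel gives the share of tested members called lower (blue) or higher (orange) at 10 weeks, with dashed lines at 10.3% and 12% of all genes, and the right panel the median with all libraries (filled) and without replicate 1 of 5 weeks (open). Genes of the acute phase (39 of 61 higher) and of mitochondrial DNA (10 of 13 higher) lead, and the cell cycle median moves from -1.90 to -0.28 without that library.

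Which changes differ between the labelled breeds was asked with the difference of the age changes. Of the 2330 genes called in Cornish, 237 were called in the same direction and 198 in the opposite direction in the libraries labelled Ogye in the fit of 17, and 841 and 347 in the fit of 20. Of all tested genes, 14% and 46.1% were called in either direction in the libraries labelled Ogye in the fits of 17 and 20. The 2 labelled breeds share no library. A difference was called in both fits for 1030 genes with the same sign, of 10697 tested in the fit of 20 and 10957 in that of 17. Of the 122 called genes chosen by the naming rule 37 were among them. Some of the 122 were chosen for this difference, which favours opposite changes, and most for their change in Cornish, which is part of it. Neither the 37 nor the 14 that follow can be set against the counts of all genes. In the libraries labelled Ogye 14 of the 122 were called in the opposite direction in the fit of 17, namely CDHR5, URAH, SULT1B1, NTNG2, CYP4V2, PTPN1, INSR, SCARB1, LPIN2, BLB2, BLB1, LYG2, PECAM1 and HS3ST3B1. For HS3ST3B1 that call rests on replicate 2 of Ogye at 5 weeks, as given below. The averaged change was called in the direction of Cornish for 75 of the 122 and in the opposite direction for 0. Most of the 122 were chosen by their change in Cornish, which is part of the average. The choice therefore favours the same direction, and this count is no independent evidence. In the joint fit of 20 libraries 37 of the 122 lost their call for age in Cornish, and in that of 17 CCS, CD36, IKZF3 and VSIG4 did. The 37 were these 4 and AIF1L, B2M, BLB1, CDH5, CIDEA, CRAT, CRY1, ESR1, ETFDH, FANCD2, GMPS, GZMM, IFI27L2, IFI6, INSR, KRT18, KRT7, LCK, MRPL23, MRPL42, MRPL47, MRPS28, MTF1, ND4L, NR3C2, OASL, PECAM1, PSMA4, PSMB1, PSMC2, SDSL, USP18 and VWF. Among the differences called in both fits, for genes whose mean reached 1 CPM in at least 1 group, the lowest were those of TRIM7.1, CDHR5, SCUBE2 and CD200L, and the highest those of URAH, HS3ST3B1, MYH1B and APOV1.

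TRIM7.1, of a family of ubiquitin ligases, had means of 22.1 and 0.0548 CPM at 5 and 10 weeks in Cornish and 0.282 and 7.70 CPM in Ogye (difference -13.20 ± 2.22 on the log2 scale, adjusted p = 0.00082 with 20 libraries). HS3ST3B1, a sulfotransferase of heparan sulfate, had 0.360 and 12.99 CPM in Cornish and 5.23 and 0.270 CPM in Ogye (9.39 ± 1.77, adjusted p = 0.0017). MYH1B, a myosin heavy chain with many similar copies, had 0.0372 and 3.46 CPM in Cornish and 1.36 and 0.0962 CPM in Ogye (9.89 ± 1.56, adjusted p = 0.00051). SCUBE2 went from 1.44 to 0.258 CPM in Cornish and from 0.0889 to 1.92 CPM in Ogye (-6.72 ± 1.15), and CD200L, a ligand-like surface protein, from 8.80 to 0.483 CPM and from 1.63 to 7.25 CPM (-6.35 ± 1.56). TRIM7.1 was split within groups, at 0.340 and 0.176 CPM in replicates 1 and 4 of Cornish at 5 weeks and 30.8 to 43.4 CPM in the other 3. The means of all 5 genes crossed between the labelled breeds as those of ATP5E did. The 5 genes were chosen for the widest differences, which favours crossing, so this is no further evidence on the labels. With limma's voom the adjusted p reached 0.21 for TRIM7.1 and HS3ST3B1 and 0.33 for CD200L. TRIM7.1 and MYH1B did not pass the count filter within Cornish and were not tested there. Of the others, SCUBE2 was not called (log2 fold change -2.45 ± 0.89, adjusted p = 0.068) and CD200L was (log2 fold change -4.21 ± 1.08, adjusted p = 0.021), though not without replicate 2 of 10 weeks (adjusted p = 0.053). HS3ST3B1 stood at 7.03 to 22.5 CPM in 4 of 5 libraries of 10 weeks and at 0.0752 CPM in replicate 4. In the libraries labelled Ogye at 5 weeks it was split too. Replicates 1 to 5 held 0.345, 19.3, 0.127, 0.397 and 5.95 CPM, scaled over the 20 libraries. The Ogye medians were 0.397 CPM at 5 weeks and 0.333 CPM at 10 weeks. Its fall there in the fit of 17 rests on replicate 2 of 5 weeks.

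**Figure D5:**
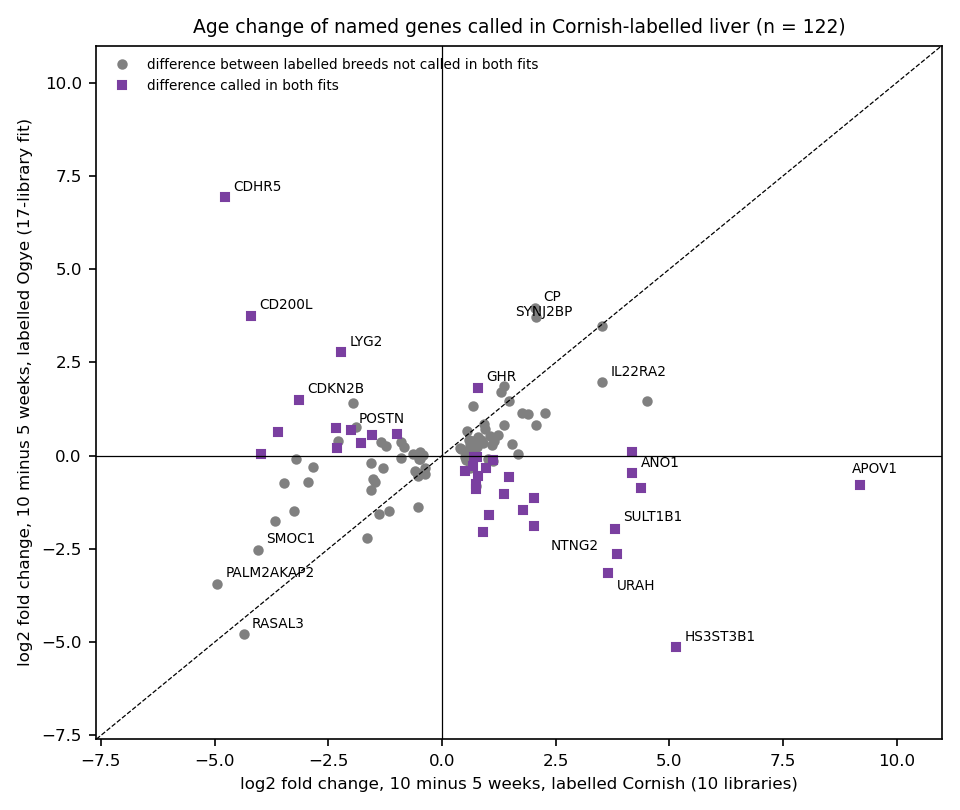
Log2 fold change from 5 to 10 weeks in libraries labelled Cornish (horizontal axis) and in libraries labelled Ogye in the fit of 17 libraries (vertical axis) for 122 genes called in Cornish and chosen by the naming rule. Squares are the 37 genes whose difference was called in both fits, circles the others, and the dashed line marks equal change. RASAL3, PALM2AKAP2 and SYNJ2BP lie near the line, and CDHR5, URAH and HS3ST3B1 in the quadrants of opposite change. The Ogye value of HS3ST3B1 rests on replicate 2 of 5 weeks.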

How the data were processed

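RNA-seq libraries of chicken liver were analysed, 10 labelled Cornish and 10 labelled Ogye. The deposited table holds whole-number read counts per gene, made by the authors. FastQC, MultiQC, STAR, featureCounts and the GRCg7b build are named per the submitters' processing notes. For versions, strand setting and the assembly behind 40097 unnamed assembled entries, nothing is given in the sources used here. Counts of the 13956 entries with a symbol were filtered with filterByExpr (10452 tested in Cornish), scaled by TMM and tested with the robust quasi-likelihood test of edgeR 4.0.16 in R 4.3.3, with Benjamini-Hochberg adjustment and calls at an adjusted p under 0.05. Entries named by a number or without a name took 0.0159% to 0.0593% of counts and were left out. Differences between the labelled breeds were fitted on 20 libraries and on 17. limma 3.58.1 and DESeq2 1.42.0 were alternatives. The script was tested on simulated counts. There the test of age called 67.7% of true log2 changes of 1 and 96% of those of 2. The test of the difference of the age changes on 20 libraries called 15% and 70.7%. A difference of the age changes that was not called may therefore still exist. Spans came from RefSeq, matched by symbol for 12769 genes.

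Named genes were the 10 widest rises and falls among called genes without overlap and averaging 1 CPM or more at the age where they were higher, the 6 others of lowest adjusted p, up to 4 members of lowest adjusted p per list, and a few fixed genes. A gene that the rule selects is not reported here. For the difference between breeds they were the 4 highest and 4 lowest. The neighbours of EDN3 and the averaged age change were chosen after values were seen. Members and lists were chosen with earlier results of these data known. Intervals were not computed, and errors are standard errors of the log2 fold change.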

Additional observations from a re-analysis of the deposited data

Results flagged for a closer look

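Single libraries stood far from the other 4 of their age, by Dixon's gap at the 95% level, in 40 of 294 screened groups of 5 libraries (147 named genes at 2 ages). Chance gives about 1 in 20 such groups if they are independent and normally spread, and these groups share their libraries. Replicate 1 of 5 weeks made 24 of them, but 12 of the genes were named for standing apart there, so that count cannot be set against chance. Without these genes 23 of 270 groups stood out, 12 of them from that library. These still hold SMC4, OIP5, INCENP, CCNB3 and DSCC1 of the cell cycle and DNA replication lists, which were chosen with earlier results known. This count cannot be set against chance either. It lay above the others at 2088 CPM for B2M, 13.7 CPM for BARD1, 21.5 CPM for CCNB3, 17.9 CPM for CDCA3, 15.4 CPM for CENPW, 28.6 CPM for DCK2 and 24.6 CPM for DSCC1. It was also above them at 88.8 CPM for GZMA, 11.6 CPM for IKZF3, 25.00 CPM for INCENP, 19.7 CPM for KIF2C, 2.16 CPM for KLHL10, 35.8 CPM for KNTC1 and 287 CPM for OASL. Further values above the others were 23.7 CPM for OIP5, 22.2 CPM for PBK, 144 CPM for RRM2, 46.9 CPM for SLBP, 88.1 CPM for SMC2, 88.6 CPM for SMC4 and 90.3 CPM for TOP2A. It lay below the others at 55.4 CPM for CRY1, 2193 CPM for PLG and 2.78 CPM for SULT1B1.

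In the other libraries ANO1 stood at 325 CPM in replicate 2 of 10 weeks against 200.1 to 218 CPM in the others. BLB1 stood at 40.9 CPM in replicate 1 of 10 weeks against 65.5 to 72.98 CPM in the others. CENPW stood at 1.95 CPM in replicate 5 of 10 weeks against 0.226 to 0.676 CPM in the others. CLDN1 stood at 687 CPM in replicate 3 of 10 weeks against 483 to 532 CPM in the others. DCK2 stood at 2.92 CPM in replicate 5 of 10 weeks against 0.647 to 1.13 CPM in the others. ETFDH stood at 104 CPM in replicate 5 of 5 weeks against 131 to 138 CPM in the others. GHR stood at 506 CPM in replicate 1 of 10 weeks against 677 to 708 CPM in the others. IFI6 stood at 7.24 CPM in replicate 2 of 10 weeks against 29.2 to 35.7 CPM in the others. KNTC1 stood at 4.54 CPM in replicate 5 of 10 weeks against 0.754 to 1.13 CPM in the others. KRT7 stood at 12.8 CPM in replicate 3 of 5 weeks against 4.64 to 6.50 CPM in the others. MRPL47 stood at 17.9 CPM in replicate 5 of 10 weeks against 14.3 to 14.8 CPM in the others. PBK stood at 2.49 CPM in replicate 5 of 10 weeks against 0.460 to 0.970 CPM in the others. RRM2 stood at 12.8 CPM in replicate 5 of 10 weeks against 1.45 to 3.02 CPM in the others. SCARB1 stood at 37.3 CPM in replicate 1 of 10 weeks against 28.8 to 30.2 CPM in the others. SCUBE2 stood at 1.13 CPM in replicate 1 of 10 weeks against 0 to 0.225 CPM in the others. THSD7B stood at 24.6 CPM in replicate 5 of 5 weeks against 4.75 to 8.66 CPM in the others.

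For 45 of the 147 screened genes the change with age differed between the labelled breeds in the fits of 20 and 17 libraries (edgeR quasi-likelihood test). Over all genes, 10697 and 10957 tested in these fits, it differed in both for 1030. Some of the 147 were chosen for this difference and most for their change in Cornish, which is part of it. The count of 45 therefore cannot be set against that of all genes. As log2 differences in the fit of 20 libraries, Cornish minus Ogye, the positive ones were 11.10 for APOV1, 9.89 for MYH1B, 9.39 for HS3ST3B1, 7.75 for URAH, 6.16 for SULT1B1, 6.01 for NTNG2, 5.17 for BDKRB1, 4.48 for NOXO1, 4.004 for IGFBP2 and 3.94 for ANO1. Smaller ones were 3.92 for BLB1, 3.29 for LPIN2, 2.97 for CYP2D6, 2.93 for ATP5E, 2.30 for IRS4, 2.04 for CYP4V2, 1.97 for PTPN1, 1.78 for NCF1C, 1.64 for PNPLA2 and 1.55 for SCARB1. Next came 1.48 for IGF1, 1.42 for APOH, 1.40 for AMY1A, 1.26 for VSIG4, 1.21 for PECAM1, 1.12 for PROC, 1.06 for CROT, 0.87 for LY86 and 0.64 for ACADS. The negative ones were -13.20 for TRIM7.1, -9.86 for CDHR5, -6.72 for SCUBE2, -6.35 for CD200L, -4.79 for THSD7B, -4.65 for LYG2, -4.07 for CYP1B1, -3.73 for POSTN and -3.64 for CYP7A1. Closer to 0 were -3.58 for CDKN2B, -3.45 for PTPRR, -2.77 for BHLHE41, -2.25 for SMC4, -1.93 for GLIS2, -1.30 for POLE2 and -1.25 for GHR.

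Among entries without a gene symbol, 1 entry named only by a number had 344 to 452 counts per 1e+06 at 5 weeks and 2.84 to 4.17 at 10 weeks (log2 fold change -6.56). It moved the same way in the libraries labelled Ogye, from 228 to 342 down to 3.76 to 11.1. The 1 entry with no name had 0.188 to 0.792 counts per 1e+06 at 5 weeks and 25.3 to 34.1 at 10 weeks (log2 fold change 6.14), against 2.49 to 44.3 and 2.23 to 6.02 in the libraries labelled Ogye.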

How the results depend on the processing

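The count of 2330 called genes stayed within 1.5 times under RLE size factors, DESeq2, limma's voom, no filter, a filter of 1 CPM in 5 libraries, the fit of 17 libraries and a fit of all entries, at 2214 to 2906 genes. Leaving out 1 library gave 1566 (without replicate 2 of 10 weeks) to 2317 genes. It moved to 787 in the fit of 20 libraries, to 10 with the level of W-linked genes, which does not overlap between ages, as a covariate, and to 4007 for the age change averaged over both labelled breeds in 20 libraries, an alternative chosen after seeing the data. The causes were not tested for the other settings. The difference of the age changes, called for 2500 genes, moved to 1491 in the fit of 17 libraries and to 5772 with voom, and ran from 1932 to 3599 when 1 library was left out, lowest without replicate 4 and highest without replicate 1 of Ogye at 5 weeks. Of the other values, for named genes and gene lists, 3414 kept their direction and side of the threshold (list counts within 1.5 times), 216 lost and 12 gained a call, 192 list counts moved by more, and 13 log2 fold changes of genes that were not called changed sign. Leaving out 1 library, BARD1 ran from -2.51 to 0.54, KNTC1 from -3.12 to 0.024, RRM2 from -3.90 to 0.0020 and SMC2 from -2.75 to 0.22, each lowest without replicate 5 of 10 weeks and above 0 without replicate 1 of 5 weeks. With the W-linked covariate they were BARD1 (0.86), CDCA3 (0.48), DCK2 (0.026), FASN (0.44), IGF2 (-0.29), KIF2C (1.32), SMC2 (0.26), THRSP (0.37) and TOP2A (0.14). Fitting all entries together turned the balance of calls to 1006 higher and 1336 lower.

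With the replicate number as a block 1483 genes were called for age (857 higher, 626 lower) and 2494 for the difference of the age changes. Libraries with the same number did not deviate together (r = -0.145 to 0.00720 over 5 pairs across genes), so no pairing by number was seen. With 5 pairs a weak shared effect could be missed.

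The 3504 genes that did not pass the count filter were not tested. The parts of sex, hour of sampling and breed labels were not tested.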
